A study of Mus musculus with 4 samples.

Results

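The genes described here are 9 genes of the tight junctions that seal the sensory epithelium of the mouse cochlea: the claudins Cldn3, Cldn6, Cldn9, Cldn10 and Cldn14, the MARVEL-domain genes Ocln and Marveld2, the angulin gene Ildr1 and the scaffold gene Tjp1. They were chosen by name for their place in this junction, out of 23420 genes in the tables, although with earlier results of these data known. All 9 were found, and 8 of them were among the 16076 genes that were tested. Cldn10 was not tested, because it had 79 reads over all 12 replicates where at least 100 were required.

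Tight junctions close the space between neighbouring epithelial cells and keep the potassium-rich endolymph above the organ of Corti apart from the perilymph below. Claudins are the four-span membrane proteins that form the strands and set which ions pass between the cells, occludin and tricellulin (Ocln and Marveld2) sit in the strands at bicellular and tricellular contacts, angulins such as Ildr1 bring tricellulin to the corners where cells meet, and ZO-1 (Tjp1) ties the strands to actin. In the inner ear, loss of Cldn9, Cldn14, Marveld2, Ildr1 or Ocln is known to cause deafness.

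Poly(A) RNA was sequenced from cochleae of CD1 mice that carried an Atoh1-GFP transgene, whose reporter is driven by the enhancer of Atoh1, the transcription factor that specifies hair cells. All cochleae were taken at postnatal day 1 and cultured overnight under 5% CO2 and 5% O2 in DMEM/F12 with 1% N2 and 100 U/ml penicillin, which the control groups share. There were 4 groups of 3 replicates: GFP-positive hair cells and GFP-negative non-hair cells from untreated organs, and the same populations from organs given 0.5 mM gentamicin for 3 h. The non-hair cells were the GFP-negative cells of the dissected organ, among them supporting cells, cells of the epithelial ridges and surrounding tissue. This population is therefore a mixture. Cells with weak GFP, such as inner phalangeal cells, were gated out of the hair cells. The study states that inner phalangeal cells were left out of the non-hair cells too. Nothing in the labels ties a replicate to its own litter or culture, and p-values here measure only the spread between these replicates.

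Between 22395037 and 28146016 reads fell on genes in a replicate. Values are the authors' normalized read numbers, in which no division by gene length was visible, although the methods describe one, and which carry an added 1, so that a value of 1 stands for no read. The 6 hair cell markers (Atoh1, Pou4f3, Myo7a, Myo6, Gfi1 and Otof) were all higher in control hair cells, with a summed normalized read number of 10552 to 10984 there and 195 to 233 in control non-hair cells. The 8 supporting cell markers did not separate the populations in this way, with a median log2 difference of 0.46 toward control hair cells, where Lfng (1.52) and Jag1 (0.95) were called higher and Hes1 (-1.69) and Sox10 (-1.46) lower. In whole populations such as these, fewer cells of a type and less RNA per cell cannot be told apart.

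In the GENCODE annotation of GRCm38, no exon of Cldn6, Cldn9, Cldn10, Cldn14, Ocln, Marveld2, Ildr1 or Tjp1 overlapped another gene, and 3.2% of the exon bases of Cldn3 (chr5:134986214-134987472) overlapped Wbscr25 on the other strand. No stretch of read length from the transcripts of any of the 9 genes occurred in a transcript of another gene. Cldn6 (chr17:23679249-23682446, plus strand) and Cldn9 (chr17:23682584-23684026, minus strand) end 137 bases apart, pointing toward each other, and the library kit did not mark strand. Ocln and Marveld2 lie 43238 bases apart on chromosome 13, both on the minus strand. Cldn3 lies 39279 bases from Cldn4 on chromosome 5.

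The RefSeq promoter windows of GRCm38.p6, each 300 bases around an annotated transcription start, held 8 of the 9 genes, all but Cldn9. Only the first window listed for a gene was searched, although Cldn14 had 3 and Cldn10, Ocln and Marveld2 had 2 each. Shown here are Ocln (chr13:100552669-100552968, minus strand), Marveld2 (chr13:100616922-100617221, minus strand) and Tjp1 (chr7:65371195-65371494, minus strand, at a start within the gene), the 3 genes that rose after gentamicin when the hair cell groups were fitted alone (in the fit of all 4 groups only Tjp1 was called), and Cldn14 (chr16:94008788-94009087, minus strand), which differed most between the populations. Capitals mark E-boxes (CANNTG, the kind of site bound by basic helix-loop-helix proteins such as Atoh1), GC boxes (GGGCGG) and TATA boxes (TATAAA), searched on both strands.
Ocln: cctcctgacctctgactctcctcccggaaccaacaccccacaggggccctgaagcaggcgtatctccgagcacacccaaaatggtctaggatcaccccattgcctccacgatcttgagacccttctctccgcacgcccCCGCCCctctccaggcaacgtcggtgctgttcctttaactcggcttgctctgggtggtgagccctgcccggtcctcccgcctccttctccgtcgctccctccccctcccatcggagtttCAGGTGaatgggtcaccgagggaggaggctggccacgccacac
Marveld2: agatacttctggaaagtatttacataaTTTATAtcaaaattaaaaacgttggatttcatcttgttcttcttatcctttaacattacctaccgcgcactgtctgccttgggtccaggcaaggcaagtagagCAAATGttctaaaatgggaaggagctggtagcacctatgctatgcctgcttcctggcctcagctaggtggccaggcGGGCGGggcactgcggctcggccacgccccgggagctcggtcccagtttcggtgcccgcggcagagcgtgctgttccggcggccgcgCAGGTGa
Tjp1: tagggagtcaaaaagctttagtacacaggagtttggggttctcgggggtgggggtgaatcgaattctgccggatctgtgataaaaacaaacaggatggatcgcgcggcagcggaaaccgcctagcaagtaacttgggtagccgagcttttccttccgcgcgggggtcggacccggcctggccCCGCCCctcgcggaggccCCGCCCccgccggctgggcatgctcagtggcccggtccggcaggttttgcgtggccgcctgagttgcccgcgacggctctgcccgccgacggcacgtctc
Cldn14: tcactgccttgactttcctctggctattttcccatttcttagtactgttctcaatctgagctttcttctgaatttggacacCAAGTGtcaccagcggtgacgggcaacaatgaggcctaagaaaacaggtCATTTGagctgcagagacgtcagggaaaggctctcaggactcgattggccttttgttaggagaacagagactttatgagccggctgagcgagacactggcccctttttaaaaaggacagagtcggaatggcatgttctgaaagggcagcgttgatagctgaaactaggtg
An E-box was found in the windows of Cldn3, Cldn6, Cldn10, Cldn14, Ocln, Marveld2 and Ildr1 and in 72.3% of all 32851 windows, so these letters are common. A GC box was found in the searched windows of Cldn3, Cldn6, Ocln, Marveld2, Ildr1 and Tjp1 and in 35.7% of all windows, but not in those of Cldn14 or Cldn10. The TATA box letters were found only in the window of Marveld2 among the 8, and in 13.6% of all windows. In Marveld2 they lay on the opposite strand, at position -223 from the start. Neither the AP-1 letters (TGANTCA, in 7.8% of all windows) nor the grainyhead letters (AACCNGTT, in 2.1%) were found in any of the 8 windows.

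The comparison of control hair cells with control non-hair cells asks which junction genes differ in level between the populations. Of the 8 tested genes, 4 were higher in hair cells and 2 were lower at an adjusted p below 0.05, where 31.9% of all tested genes were higher and 42.2% lower by the same rule. Cldn14, Ildr1, Marveld2 and Cldn9 were the genes higher in hair cells, and Cldn3 and Cldn6 were those lower, and all but Cldn14 had sizeable levels in both populations. Ocln and Tjp1 did not pass the test. The median log2 difference of the 8 genes was 0.68, beside -0.12 over all tested genes.

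Cldn14, a claudin that lowers cation passage, had normalized read numbers of 156, 139.7 and 132 in control hair cells and 4.80, 5.60 and 8.95 in control non-hair cells. Every hair cell replicate was far above every non-hair cell replicate, a log2 difference of 4.51 ± 0.32 (SE; 22.9-fold; adjusted p = 1.71e-07). Less the added 1, its mean level in control non-hair cells was 3.85% of that in control hair cells. The same share was 1.98% for the sum of the 6 hair cell markers. It was 4.57% for Myo6, and for the other markers it ran only from 0.0257% (Pou4f3) to 0.613% (Myo7a). The sum thus mostly follows Myo6, and the share of Cldn14 was above that of every marker but Myo6. The part of hair cell RNA in the non-hair cell value of Cldn14 was not tested.

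Cldn9, which lies beside Cldn6, had normalized read numbers of 350.1, 338 and 340.3 in control hair cells and 123, 149.7 and 232 in control non-hair cells. The groups did not overlap, with a log2 difference of 1.08 ± 0.26 (SE; 2.11-fold; adjusted p = 0.00251). Its level in non-hair cells was 48.9% of that in hair cells, and the same share of the hair cell marker sum was 1.98%. Among the single markers the highest share was 4.57%, that of Myo6. The part of hair cell RNA in this value was not tested.

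Cldn3, a claudin that tightens epithelia, went the other way, with 38.0, 40.4 and 40.6 in control hair cells and 84.4, 118 and 171 in control non-hair cells. Its log2 difference was -1.59 ± 0.33 (SE; adjusted p = 0.000913), and no replicate of one group reached the other. Cldn6, a claudin of embryonic epithelia, had 75.2, 63.95 and 74.6 in control hair cells and 109.5, 136 and 207 in control non-hair cells. The groups were again apart, at a log2 difference of -1.03 ± 0.33 (SE; adjusted p = 0.0139), but this call was lost when non-hair cell control replicate 3 was left out (log2 difference -0.78, adjusted p = 0.062). So 2 neighbouring claudin genes on chromosome 17, Cldn6 and Cldn9, differed between the populations in opposite directions.

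Cldn10, a claudin of ion-transporting epithelia, was barely detected. It had 3 reads in the control hair cell replicates together, 1 in the gentamicin hair cells, 46 in the control non-hair cells and 29 in the gentamicin non-hair cells. No difference is drawn from these counts.

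Marveld2 (tricellulin) had normalized read numbers of 39.0, 36.9 and 38.4 in control hair cells and 12.7, 17.7 and 23.4 in control non-hair cells. The hair cell replicates were close together and above all non-hair cell replicates, by a log2 difference of 1.13 ± 0.22 (SE; 2.19-fold; adjusted p = 0.000542). Ildr1, its angulin partner at tricellular contacts, had 103, 96.2 and 102 in control hair cells and 28.0, 32.8 and 53.8 in control non-hair cells. It was higher in hair cells by 1.45 ± 0.28 on the log2 scale (SE; 2.74-fold; adjusted p = 0.0006), again with no overlap.

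Ocln had 37.7, 37.4 and 38.6 in control hair cells and 23.2, 29.8 and 43.2 in control non-hair cells, and the groups overlapped (log2 difference 0.29 ± 0.25 SE, adjusted p = 0.311). Tjp1 had 255, 235 and 242 in control hair cells and 270.0, 219.6 and 214 in control non-hair cells, which also overlapped (log2 difference 0.06 ± 0.10 SE, adjusted p = 0.591, 95% interval -0.16 to 0.29). With its narrow interval, Tjp1 had the most even level of the 8 tested genes across the control populations.

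**Figure D1:**
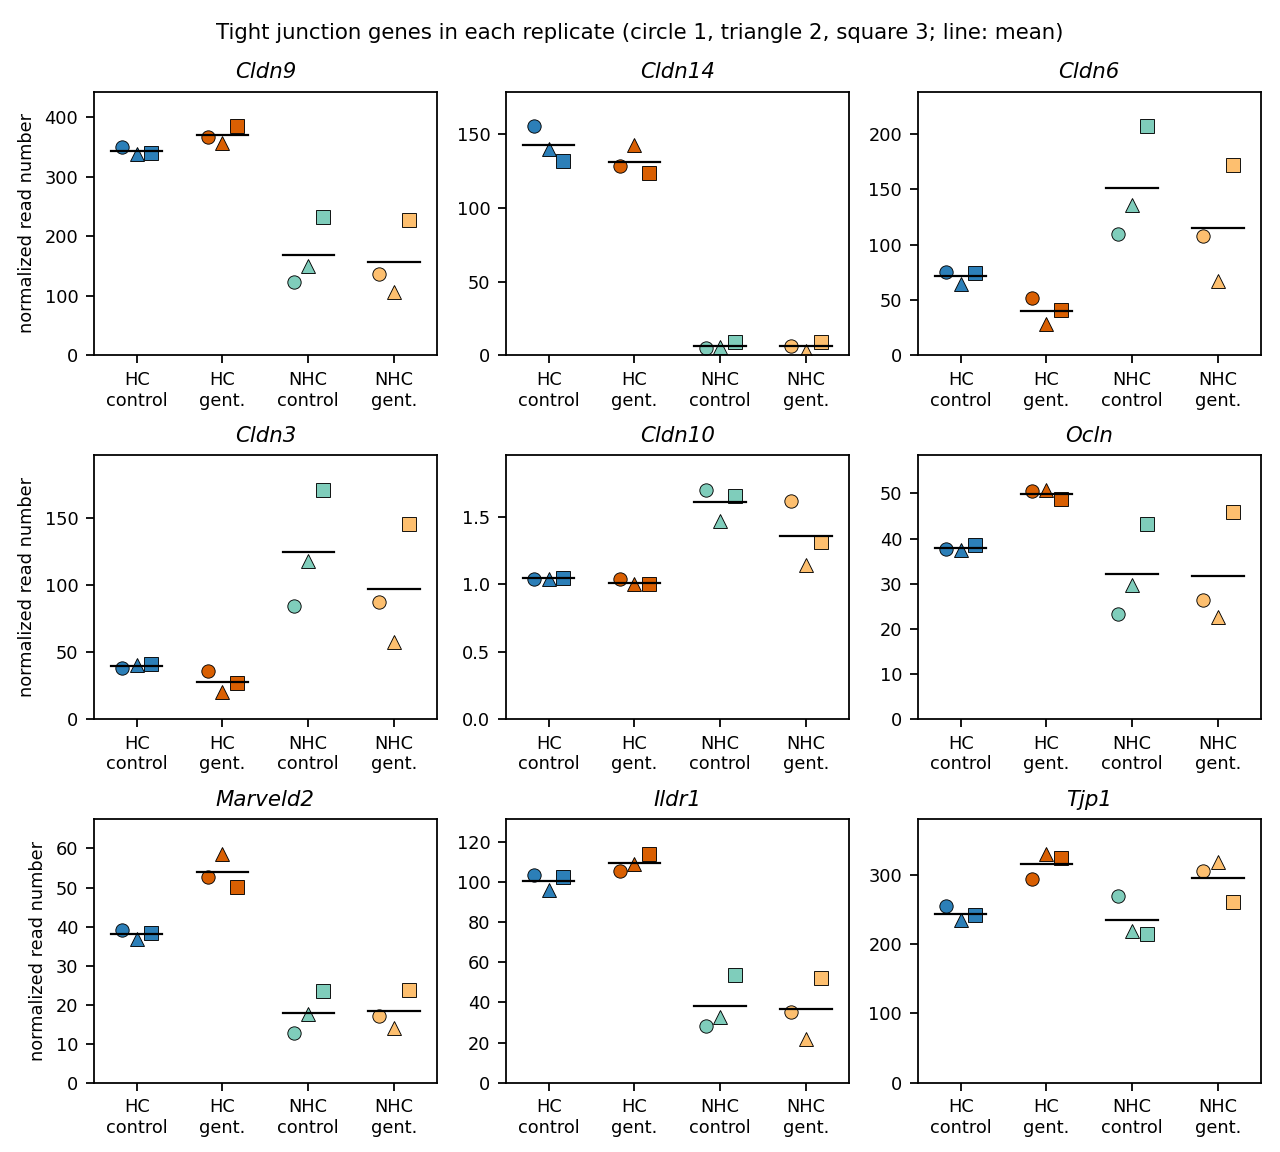
Normalized read number (y axis, linear, from 0) of each of the 9 genes in the 12 replicates, by group (x axis; HC hair cells, NHC non-hair cells, gent. gentamicin), with replicate 1 as a circle, 2 as a triangle, 3 as a square and the group mean as a line. Cldn14 stands at 123 to 156 in hair cells and at 3.14 to 9.12 in non-hair cells, Cldn3 and Cldn6 are higher in non-hair cells, and the non-hair cell replicates of every gene but Tjp1 and Cldn10 have replicate 3 on top.

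Levels of different genes were compared per kilobase of exon, after taking off the added 1. In control hair cells the order was Cldn9 (237 ± 4.4 per kb, SD, n = 3), Cldn14 (71.9 ± 6.08), Cldn6 (40.8 ± 3.68), Tjp1 (34.2 ± 1.38), Ildr1 (32.7 ± 1.27), Cldn3 (30.7 ± 1.16), Marveld2 (10.97 ± 0.327) and Ocln (8.73 ± 0.144), with Cldn10 at 0.0170. The replicates of Tjp1 and Ildr1 overlapped, as did those of Ildr1 and Cldn3, and all other neighbours in this order were apart. In control non-hair cells the order was Cldn9 (116 ± 39.6), Cldn3 (97.9 ± 34.5), Cldn6 (87.0 ± 29.3), Tjp1 (32.9 ± 4.34), Ildr1 (12.2 ± 4.51), Ocln (7.36 ± 2.41), Marveld2 (5.02 ± 1.58), Cldn14 (2.77 ± 1.12) and Cldn10 (0.236 ± 0.0464). There the replicate ranges of Cldn9 and Cldn3 overlapped, as did those of Cldn3 and Cldn6 and those of Ildr1, Ocln and Marveld2 each with the next gene, although within each of the 3 replicates the order was the same.

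The make-up of claudin mRNA was taken as each claudin's share of the per-kb sum over the 23 claudins with a gene model, 5 of them among the 9 genes. Left out were Cldn25 and Cldn26, which had no gene model. Cldn25 had mean normalized read numbers of 37.3 in control hair cells and 87.6 in control non-hair cells. Cldn9 took 53.9% ± 0.322 (SD, n = 3) of this sum in control hair cells, Cldn14 16.3% ± 1.07, Cldn6 9.28% ± 0.694 and Cldn3 6.99% ± 0.420. In control non-hair cells Cldn9 took 22.9% ± 0.940, Cldn3 19.3% ± 1.19, Cldn6 17.2% ± 0.579 and Cldn14 0.541% ± 0.0544. The rest of the non-hair cell sum was led by Cldn7 (9.49% ± 0.511), Cldn11 (7.74% ± 2.93), the claudin of myelin and of strial basal cells, Cldn4 (7.41% ± 1.67) and Cldn5 (4.42% ± 0.618), the claudin of endothelium. While the per-kb sum itself ran from 369.9 to 671 among the control non-hair cell replicates, the share of Cldn9 stayed between 22% and 23.9%.

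In hair cells given gentamicin, Cldn9 took 57.1%, 60.7% and 61.1% of the claudin sum, above the 53.6%, 54.2% and 53.8% of the control replicates. The shares of Cldn6 (6.6%, 3.85% and 5.37%) and Cldn3 (6.18%, 3.72% and 4.71%) lay below their control values, which were 8.49% to 9.79% for Cldn6 and 6.51% to 7.27% for Cldn3. The per-kb sum was 439.7 ± 10.5 in control and 429 ± 19.1 in gentamicin hair cells, and its replicates overlapped. These shares add up to a fixed whole and were not tested.

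**Figure D2:**
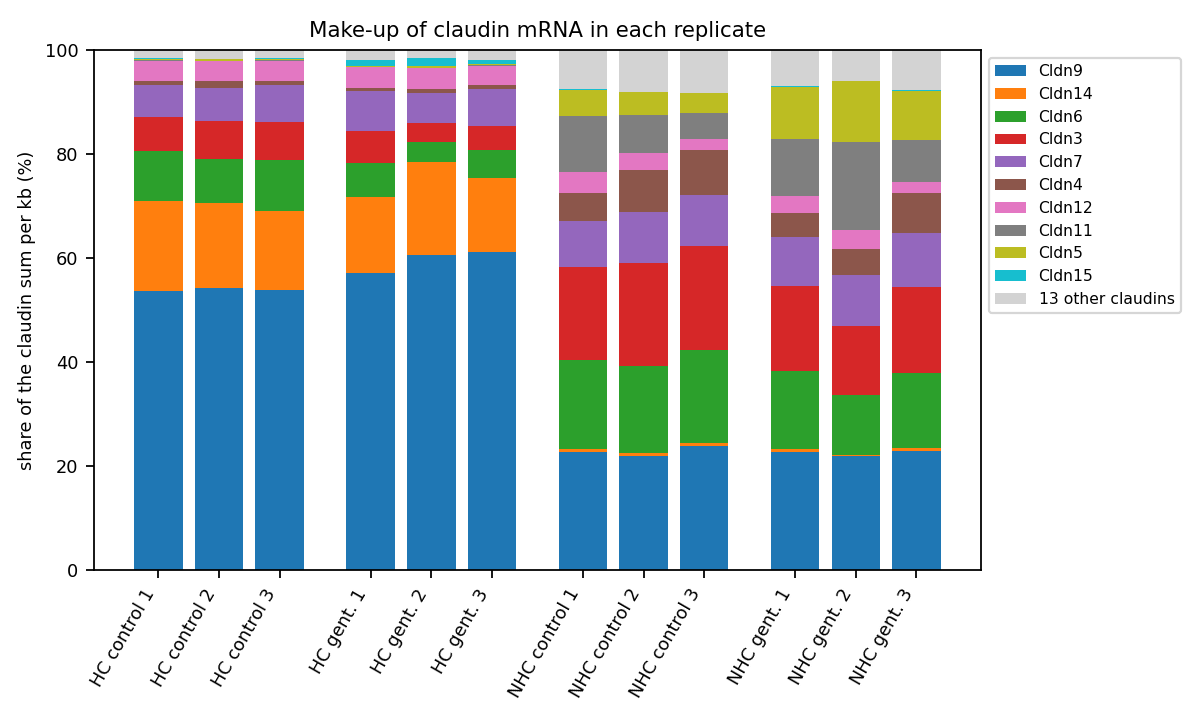
Share of the per-kb claudin sum in percent (y axis) in each of the 12 replicates (x axis), stacked by claudin for the 10 named claudins with the other 13 in grey. Cldn9 (bottom block) takes 53.6% to 61.1% in hair cells and 21.9% to 23.9% in non-hair cells, and Cldn14 is a visible block in hair cells alone.

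The comparison of gentamicin with control hair cells asks how these genes responded within 3 h of the drug. By the study's rule, an unadjusted p below 0.01 with a fold above 1.2, 1 of the 8 genes was called in the fit of all 4 groups, Tjp1, which rose, where 27.5% of all tested genes were called. The median log2 difference of the 8 genes was 0.12, beside -0.09 over all tested genes. That fit shares 1 estimate of the spread, and the spread of these genes was wide in non-hair cells. When the hair cell groups were fitted alone, 3 of the 8 rose (Tjp1, Ocln and Marveld2, where 13.3% of all tested genes rose) and 1 fell (Cldn6, where 18.2% of all tested genes fell). The replicates of the groups did not overlap for 7 of the 8 genes, all but Cldn14, and for 54.8% of all tested genes.

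Tjp1, the scaffold, had normalized read numbers of 255, 235 and 242 in control and 294, 331 and 324 in gentamicin hair cells. All 3 treated replicates were above all control replicates, at a log2 difference of 0.37 ± 0.10 (SE; 1.30-fold; adjusted p = 0.0178). In the fit of all 4 groups this call was lost without control replicate 2 or 3 or gentamicin replicate 2 or 3, with log2 differences of 0.34 to 0.43 over all such fits. In the hair cell groups alone the difference was 0.37 ± 0.07 (adjusted p = 0.00518) and was called in 6 of 6 fits that left out 1 replicate.

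Ocln had 37.7, 37.4 and 38.6 in control and 50.4, 50.8 and 48.7 in gentamicin hair cells. Replicates within each group were close together, and the groups were well apart. The log2 difference was 0.40, with an SE of 0.25 in the fit of all groups (adjusted p = 0.237) and of 0.06 in the hair cell groups alone (adjusted p = 0.00259).

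Marveld2 had 39.0, 36.9 and 38.4 in control and 52.7, 58.7 and 50.2 in gentamicin hair cells, all treated replicates above all controls. Its log2 difference was 0.50, with an SE of 0.22 in the fit of all groups (adjusted p = 0.0983) and of 0.08 in the hair cell groups alone (adjusted p = 0.00282). Like Ocln, it was called in 6 of 6 fits of the hair cell groups that left out 1 replicate.

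Cldn6 had 75.2, 63.95 and 74.6 in control and 51.4, 28.0 and 41.3 in gentamicin hair cells. The treated replicates were all lower but spread 1.83-fold among themselves, with replicate 2 lowest. The log2 difference was -0.86, with an SE of 0.33 in the fit of all groups (adjusted p = 0.0641) and of 0.20 in the hair cell groups alone (adjusted p = 0.0123). The call in the hair cell groups alone was lost without control replicate 1 or 3, and without gentamicin replicate 2 the difference was -0.63 (adjusted p = 0.0101).

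Cldn3 had 38.0, 40.4 and 40.6 in control and 35.5, 20.1 and 26.8 in gentamicin hair cells, lowest again in treated replicate 2. It was not called in either fit (log2 difference -0.57, SE 0.33, adjusted p = 0.203 with all groups, and SE 0.18, adjusted p = 0.0412 alone). Without gentamicin replicate 2 the difference was -0.36.

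Cldn9, Ildr1 and Cldn14 were not called in either fit. Cldn9 had 367, 358 and 386 in gentamicin hair cells, above its controls by a log2 difference of 0.11 (95% interval -0.46 to 0.67 in the fit of all groups). Ildr1 had 106, 109 and 114, at a log2 difference of 0.12 (95% interval -0.49 to 0.74). Cldn14 had 128, 143 and 123, at a log2 difference of -0.12 (95% interval -0.83 to 0.60), and its replicates overlapped the controls.

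Markers of other cell types also differed between gentamicin and control hair cells, and their values are given beside those of Cldn3 and Cldn6. Of all 16076 tested genes, 2381 fell and 2037 rose in the fit of all groups. In the hair cell groups alone 18.2% of them fell and 13.3% rose. This balance depended on scaling. Scaled by the total of each replicate, 2774 rose and 1591 fell in the fit of all groups. In the hair cell groups alone, so scaled, 2960 rose and 1941 fell. Of 8 supporting cell markers (Sox2, Sox10, Jag1, Lfng, Hes1, Hes5, Prox1 and Fgfr3), 4 fell in gentamicin hair cells in the fit of all groups and 5 in the hair cell groups alone, and none rose in either fit. Hes5, a Notch target, fell by 2.02 on the log2 scale (adjusted p = 0.00424), Hes1 by 1.34 and Lfng by 1.17. Their summed normalized read number was 1353 to 1573 in control hair cells, 596 to 1121 in gentamicin hair cells (lowest in replicate 2), 954 to 1578 in control and 631 to 1311 in gentamicin non-hair cells, and none of the 8 was at 0 in any group. Of 5 epithelial markers (Epcam, Cdh1, Krt8, Krt18 and Krt19), none was called by limma in the fit of all groups (2 had an unadjusted p below 0.05, both lower) and 3 fell in the hair cell groups alone, with sums of 1003 to 1021 in control and 672 to 959 in gentamicin hair cells. In the fit of all groups none of the 6 hair cell markers was called by limma (1 had an unadjusted p below 0.05), and 2 of 6 mesenchyme markers and 1 of 6 endothelial markers fell. In the hair cell groups alone 1 hair cell marker rose (Atoh1, log2 difference 0.50 ± 0.07 SE, adjusted p = 0.0022), 0 mesenchyme markers were called and 2 endothelial markers fell. All 6 mesenchyme markers nevertheless had a negative log2 difference. Their sum was 457 to 688 in control and 279 to 374 in gentamicin hair cells, without overlap. The part of these markers in the values of Cldn3 and Cldn6 was not tested.

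**Figure D3:**
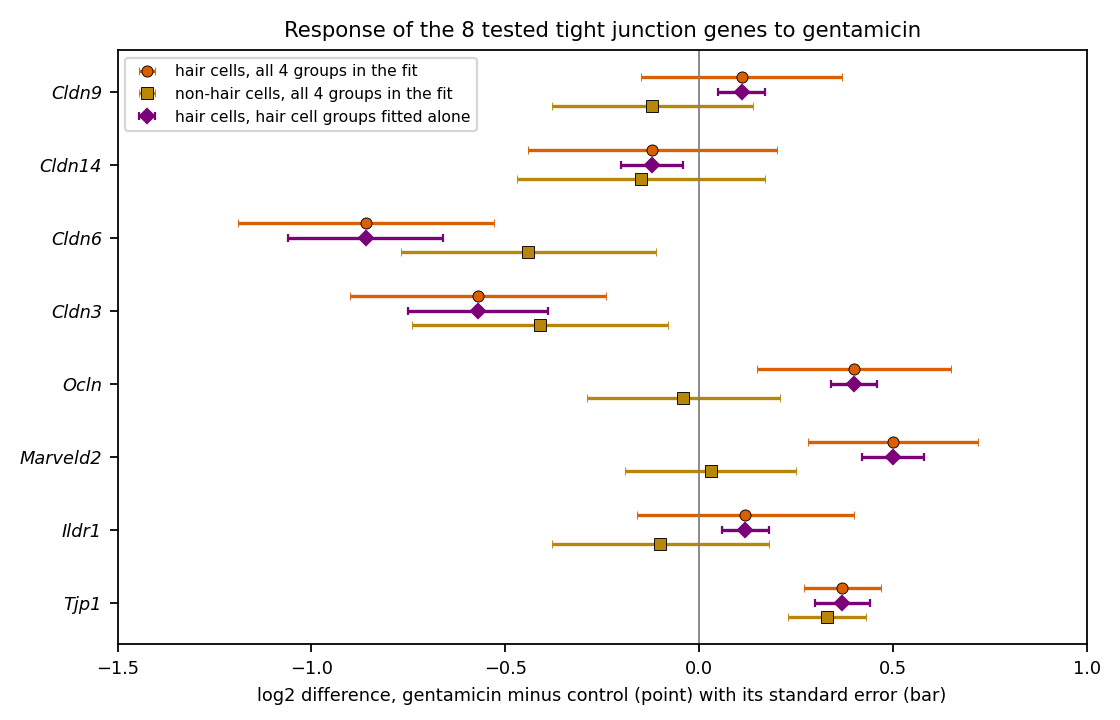
Log2 difference, gentamicin minus control (x axis), of the 8 tested genes (y axis), as points with bars of 1 SE, in hair cells (circles) and non-hair cells (squares) from the fit of all 4 groups and in hair cells from the hair cell groups alone (diamonds). For Ocln and Marveld2 the difference in hair cells is the same in both fits, 0.40 and 0.50, while the SE is 0.25 and 0.22 with all groups and 0.06 and 0.08 alone.

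In the non-hair cells, 1 of the 8 genes was called by the same rule, Tjp1, beside 5.44% of all tested genes. Tjp1 had 270.0, 219.6 and 214 in control and 305, 319 and 261 in gentamicin non-hair cells, at a log2 difference of 0.33 ± 0.10 (SE; adjusted p = 0.15). Treated replicate 3 lay below control replicate 1, so the groups overlapped, and the call was lost when the non-hair cell groups were fitted alone (adjusted p = 0.431). The other 7 genes had overlapping groups, with log2 differences from -0.44 (Cldn6) to 0.03 (Marveld2). Gentamicin non-hair cells had 87.1, 57.5 and 145 for Cldn3, 107.5, 66.75 and 172 for Cldn6, and 136, 107 and 228 for Cldn9.

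The spread among non-hair cell replicates was wide for most of these genes. The SD of log2 normalized read number had a median of 0.468 over the 8 genes in control non-hair cells and of 0.596 in gentamicin non-hair cells, beside 0.145 and 0.157 over all tested genes. In hair cells it was 0.055 in control and 0.10 in gentamicin, beside 0.095 and 0.127 over all tested genes. In both non-hair cell groups replicate 3 was highest for Cldn3, Cldn6, Cldn9, Cldn14, Ocln, Marveld2 and Ildr1. In the gentamicin group replicate 2 was lowest for all 7. Tjp1 was lowest in replicate 3 of both groups.

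This order was also that of Epcam, an adhesion molecule of epithelial cells, which had 281, 390.3 and 595 in control and 337, 212 and 503 in gentamicin non-hair cells. Divided by Epcam after taking off the added 1, a ratio chosen after the values were seen, Cldn3 lay between 0.256 and 0.300 in all 6 non-hair cell replicates, a 1.17-fold range where its level had a 3.00-fold range. Cldn6 had a 1.24-fold range of the ratio and a 3.13-fold range of the level, and Ildr1 1.25-fold and 2.54-fold. Cldn9 had 1.31-fold and 2.19-fold, Ocln 1.45-fold and 2.07-fold, Cldn14 1.60-fold and 3.80-fold, and Marveld2 1.62-fold and 1.94-fold. For Tjp1 the ratio had a 4.20-fold range and the level a 1.49-fold range, so it alone of the 8 varied more as a ratio. By treatment, the ratio of Marveld2 was 0.0378 to 0.0429 in control and 0.0454 to 0.0612 in gentamicin replicates. That of Ildr1 was 0.0816 to 0.0964 and 0.0983 to 0.102, and that of Cldn6 was 0.346 to 0.387 and 0.311 to 0.341. For the other genes the ratios of control and gentamicin replicates overlapped. These ratios were not tested and were not computed over all genes. The 6 mesenchyme markers (Col1a1, Col1a2, Col3a1, Pdgfra, Tbx18 and Pou3f4) summed to 6893, 6762 and 4969 in control and 7308, 9318 and 5763 in gentamicin non-hair cells, in the reverse order of Epcam. What these replicates differed in was not tested.

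**Figure D4:**
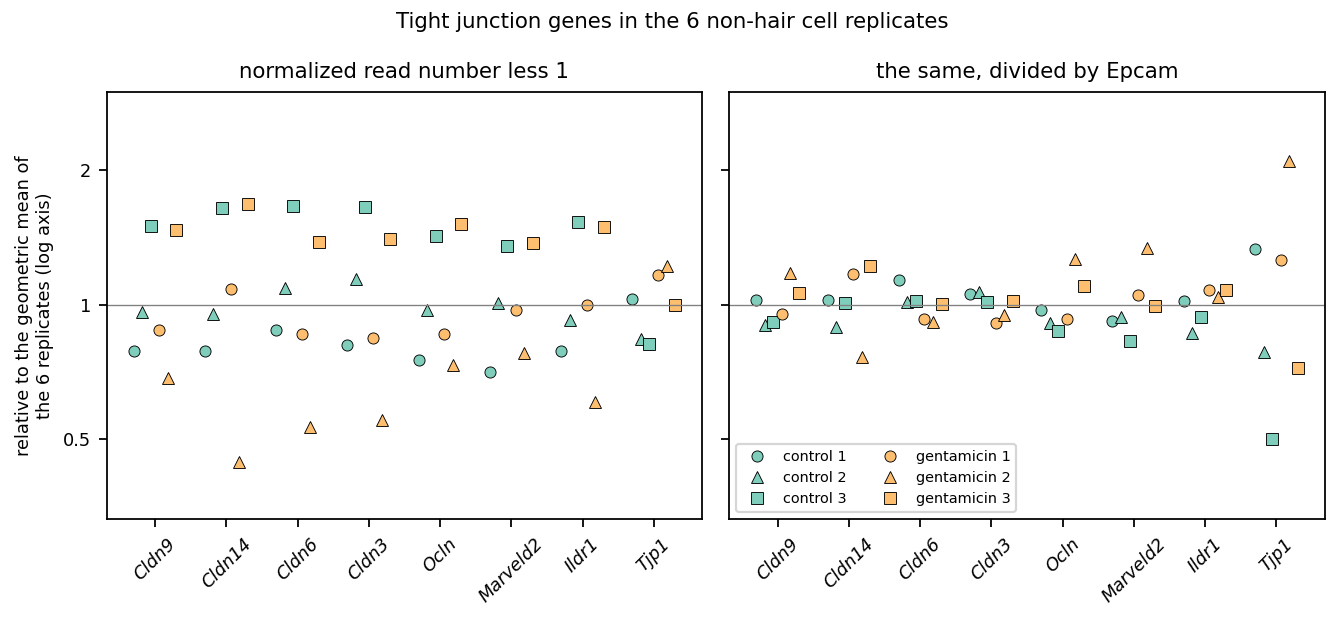
Levels of the 8 tested genes in the 6 non-hair cell replicates, each relative to the geometric mean of the 6 (y axis, log scale), as the normalized read number less 1 (left) and after division by Epcam (right), with control in green and gentamicin in orange and replicates 1, 2 and 3 as circle, triangle and square. The levels of Cldn3 span 3.00-fold and their ratios 1.17-fold, while for Tjp1 the levels span 1.49-fold and the ratios 4.20-fold.

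Whether the response differed between the populations was tested as the hair cell response minus the non-hair cell response. None of the 8 genes passed an adjusted p below 0.05 in this limma fit, beside 13.4% of all tested genes, and 0 of the 8 had an unadjusted p below 0.05. The differences of response were 0.46 ± 0.31 (SE) for Marveld2, 0.44 ± 0.35 for Ocln and -0.42 ± 0.47 for Cldn6, on the log2 scale. That of Tjp1 was 0.04 ± 0.15, with a 95% interval of -0.28 to 0.36. No gene of the 8 is therefore shown to respond in one population more than in the other.

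Among organs given gentamicin, 5 of the 8 genes were higher in hair cells and 2 lower, where 34.6% of all tested genes were higher and 43.5% lower. The genes were those of the control comparison plus Ocln, with 50.4, 50.8 and 48.7 in hair cells and 26.4, 22.7 and 45.9 in non-hair cells (log2 difference 0.73 ± 0.25 SE, adjusted p = 0.0183). That call was lost without gentamicin non-hair cell replicate 1 or 2 (0.63 and 0.52). Cldn14 had 6.22, 3.14 and 9.12 in gentamicin non-hair cells, and its log2 difference was 4.54 ± 0.32 (adjusted p = 1.21e-07). The differences of Marveld2 (1.59), Ildr1 (1.68), Cldn9 (1.31), Cldn6 (-1.46) and Cldn3 (-1.75) were all called.

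Of 20 other claudins in the tables, 14 were tested, and 1 was higher and 9 were lower in control hair cells than in control non-hair cells, where 31.9% of all tested genes were higher and 42.2% lower. Their median log2 difference was -1.36, beside -0.12 over all tested genes. Cldn12, with 68.0, 66.0 and 67.2 in control hair cells and 57.8, 59.3 and 57.6 in control non-hair cells, was the 1 that was higher, by a log2 difference of 0.20 ± 0.06 (adjusted p = 0.0122). Cldn11 lay at the far end, at 1.999, 2.28 and 1.83 in hair cells and 75.9, 66.1 and 63.4 in non-hair cells (-5.07 ± 0.15, adjusted p = 1.07e-10), followed by Cldn5 (-3.50) and Cldn8 (-2.97). In gentamicin hair cells 1 of the 14 rose and none fell by limma (1 had a lower level at an unadjusted p below 0.05), with a median log2 difference of -0.01. Of all tested genes, 27.5% were called there in either direction. Cldn15, a claudin that passes cations, rose from 1.48, 1.73 and 1.42 to 10.1, 12.3 and 6.99, a log2 difference of 2.64 ± 0.20 (adjusted p = 1.62e-05). It also passed the test of the difference in response (2.47 ± 0.28, adjusted p = 0.000887), and it took 1.09% of the claudin sum in gentamicin hair cells. Cldn15 lies 382 bases from Fis1.

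In gentamicin non-hair cells 2 of the 14 other claudins rose, where 5.44% of all tested genes were called in either direction. Cldn5 rose from 27.6, 29.6 and 37.7 to 59.9, 56.3 and 93.7, a log2 difference of 1.12 ± 0.20 (adjusted p = 0.0466), and its response differed from that of hair cells (-1.11 ± 0.28, adjusted p = 0.0276). Beside it, 1 of 6 endothelial markers (Pecam1, Cdh5, Tek, Kdr, Emcn and Egfl7) rose, and their summed normalized read number was 309 to 353 in control and 392 to 494 in gentamicin non-hair cells. Egfl7, the marker that rose, went from 29.6, 35.2 and 41.1 to 82.4, 92.4 and 100.0, and it weighs on the rise of the sum. The other markers were not called. Their log2 differences were -0.27 for Pecam1 and from 0.22 (Cdh5 and Emcn) over 0.27 (Kdr) to 0.40 (Tek). The part of endothelial RNA in the value of Cldn5 was not tested. Cldn11 rose by 0.53 ± 0.15 on the log2 scale (adjusted p = 0.12).

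Among the 4 other MARVEL and angulin genes, Marveld3 was higher in control hair cells (0.88 ± 0.26, adjusted p = 0.00847), while Marveld1 (-3.14 ± 0.20) and Ildr2 (-1.95 ± 0.21) were lower. Of all tested genes, 31.9% were higher and 42.2% lower by the same rule. Lsr, the angulin most widely expressed in epithelia, had 73.4, 67.2 and 65.5 in control hair cells and 39.7, 51.9 and 77.3 in control non-hair cells and was not called. In gentamicin hair cells Marveld1 fell by 0.70 on the log2 scale in the fit of all groups (adjusted p = 0.0179), but by the rule on the unadjusted p it was not called in the hair cell groups alone (adjusted p = 0.0329). There Lsr rose by 0.28 ± 0.07 (SE, adjusted p = 0.014), which the fit of all groups did not call (adjusted p = 0.401).

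Of 17 other genes of the junction scaffold and of cell polarity, 5 rose and 2 fell in gentamicin hair cells, where 27.5% of all tested genes were called in either direction. Inadl (PATJ) rose from 67.1, 67.9 and 65.1 to 94.4, 97.9 and 97.4 (0.53 ± 0.17, adjusted p = 0.0347). Mpp5 (PALS1), which binds PATJ in the Crumbs polarity complex, rose from 130.5, 117 and 149 to 173, 189.9 and 181 (0.46 ± 0.10, adjusted p = 0.00531). Cgnl1 fell by 0.54 and Magi2 by 0.36 on the log2 scale. The median log2 difference of the 17 was -0.05. In non-hair cells none of the 17 was called by limma (2 had an unadjusted p below 0.05), beside 5.44% of all tested genes. None passed the limma test of the difference in response (4 had an unadjusted p below 0.05), beside 13.4% of all tested genes. With 17 genes, counts of 0 beside such shares say little.

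In the control comparison 8 of the 17 were higher and 4 lower in hair cells, where 31.9% of all tested genes were higher and 42.2% lower. Tjp3 (ZO-3) was higher by 2.47 ± 0.29 on the log2 scale (adjusted p = 1.23e-05), with 172, 176 and 150.0 in hair cells and 22.4, 29.4 and 41.1 in non-hair cells. Prkcz (1.82) and Mpdz (1.74) followed, while Cgnl1 (-3.76), Prkci (-1.40) and Pard6g (-1.03) were lower. The atypical protein kinase C genes Prkcz and Prkci thus differed in opposite directions.

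Of 5 genes of the junctional adhesion molecule family and its relatives, 1 was higher and 3 were lower in control hair cells. Of all tested genes, 31.9% were higher and 42.2% lower. The 3 lower genes were Jam2 (-3.86), Jam3 (-0.98) and F11r (-0.57). None of the 5 was called by limma after gentamicin in either population (0 had an unadjusted p below 0.05). Of all tested genes, 27.5% were called in hair cells and 5.44% in non-hair cells. Of 11 adherens junction genes, 6 were higher and 3 lower in control hair cells, again beside 31.9% and 42.2% of all tested genes. Pvrl1 (nectin-1) was higher by 2.75, Mllt4 (afadin), which binds nectins, by 2.63 and Jup (plakoglobin) by 1.71 on the log2 scale. After gentamicin Pvrl1 alone of the 11 was called in hair cells, where it fell from 331, 324 and 299 to 141, 141 and 188 (log2 difference -1.03 ± 0.18, adjusted p = 0.00167). Of all tested genes, 27.5% were called there in either direction. In non-hair cells none of the 11 was called by limma (0 had an unadjusted p below 0.05), beside 5.44% of all tested genes.

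**Figure D5:**
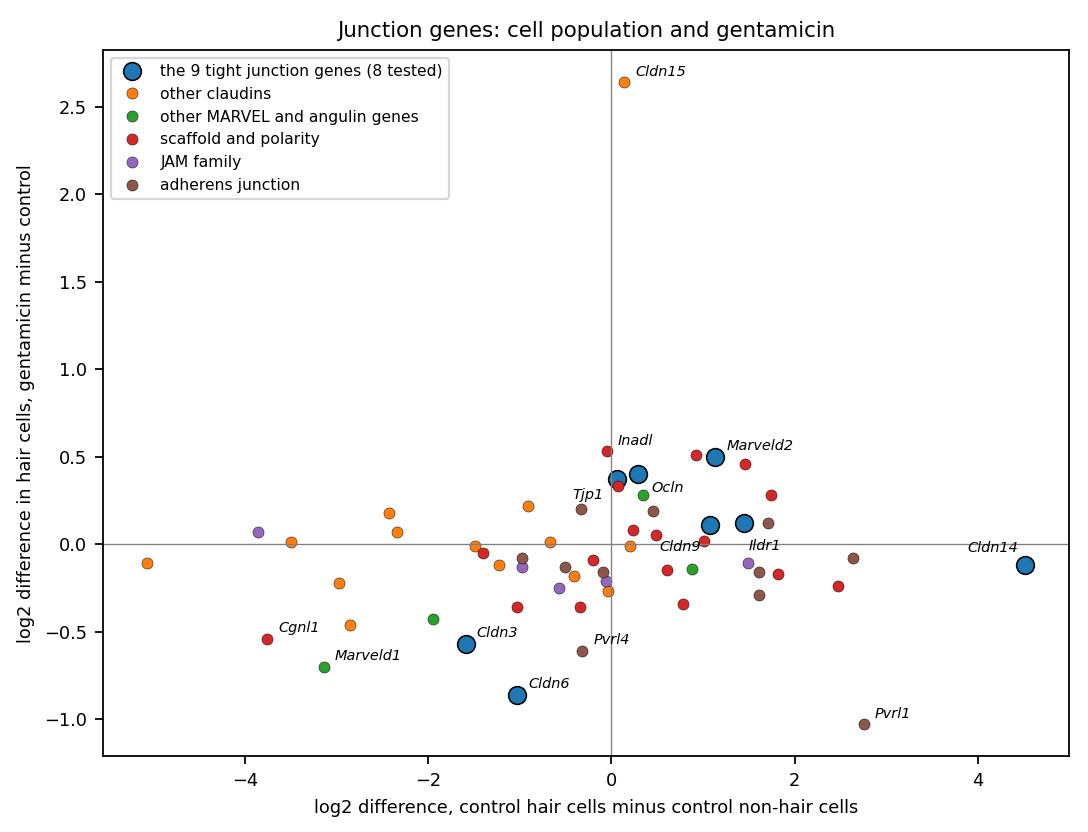
Each junction gene by its log2 difference between untreated hair and non-hair cells (x axis) and between gentamicin and control hair cells (y axis), coloured by list, with the 8 tested genes as large points; the axes share the control hair cell replicates. Cldn14 lies at 4.51 on the x axis, Cldn15 at 2.64 and Pvrl1 at -1.03 on the y axis, and Marveld2 and Ocln lie at 0.50 and 0.40 on the y axis.

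The genes whose levels ran most closely with each of the 8 over the 12 replicates were taken from 13812 tested genes by Pearson's r of the log2 normalized read number, as a description. The points mix hair cell and non-hair cell replicates and share their libraries, and likeness within each population was not computed. Cldn14 was nearest to Tmem184a (r = 0.999) and Kcnh8 (0.998), Ildr1 to Llgl2 and AI661453 (both 0.996), Cldn3 to Slc44a4 (0.996) and Il4ra (0.994), and Cldn9 to AI661453 (0.991) and Thrb (0.99). Cldn6 was nearest to Fzd8 (0.99) and Tmprss5 (0.984), Marveld2 to Arhgap24 (0.991) and Arfgef2 (0.989), and Ocln to Lsr (0.982) and Egf (0.979). Tjp1 had the loosest neighbours, Snrnp40 (0.951) and Trmt2a (0.944).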

How the data were processed

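Gene-level values were measured by RNA sequencing of sorted hair cells and non-hair cells, 3 replicates in each of 4 groups. Single-end reads of 50 bp were quality-trimmed by the authors, mapped to mm10 with TopHat2 in PartekFlow and deposited as a normalized read score per gene and replicate with 1 added; the gene annotation is not given in the sources used here. The methods describe a score per gene length and library size (RPKM), but most low scores of a replicate were multiples of 1 step that took no account of length, so they were treated as not divided by length. The scores are not counts: stepping back to reads gave whole numbers, within 0.1, for 82.9% to 83.9% of low values, so no count model was used. The 16076 genes that reached 100 recovered reads in the 12 replicates together were tested on log2 scores with limma 3.58.1 (R 4.3.3), with 1 term per group and moderated variances; the script was tested on simulated data. Two-sided limma p-values were adjusted over all tested genes by the Benjamini-Hochberg method. Gentamicin calls used the study's rule, unadjusted p below 0.01 and fold above 1.2, and other calls an adjusted p below 0.05. Fold changes carry the added 1 and understate those of low genes.

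Same-numbered control hair cell and non-hair cell replicates deviated together from their group means (r = 0.216, 0.316 and 0.200). In the gentamicin groups this held for replicate 1 only (r = 0.377, -0.039 and -0.018). With the number as a block all 6 calls of the control comparison held. Members and lists were chosen with earlier results of these data known. Other genes named are, per list and direction, up to 3 called genes with the largest difference and a mean score of at least 5. Per gene its 2 nearest are named too. Values of Pou4f3, Myo6, Myo7a, Atoh1, Hes1, Hes5, Lfng, Jag1, Sox10, Lsr, Egfl7, Pecam1, Cdh5, Tek, Kdr, Emcn and Epcam were singled out after they were seen. Some genes that this rule names are not reported here. Gene models came from GENCODE for GRCm38, promoters from RefSeq. Alternatives covered scaling, offset, filters, thresholds, the groups in the fit and each replicate left out.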

Additional observations from a re-analysis of the deposited data

How the results depend on the processing

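Fitted over the compared groups alone, the count of called genes after gentamicin moved from 1 to 4 in hair cells (also 4 when those groups were in addition scaled by total, and 3 to 5 with 1 replicate left out, both chosen after seeing the data) and from 1 to 0 in non-hair cells. In hair cells it was 2 with the replicate number as a block, the second being Cldn6 (adjusted p = 0.0253), 0 at a fold above 1.5 and 0 to 1 with 1 replicate left out of the fit of all groups. In non-hair cells it was 0 at a fold above 1.5, 0 at an adjusted p below 0.05 and 0 to 1 with 1 replicate left out. Same-numbered hair cell replicates did not deviate together (r = 0.037, 0.052 and 0.037). Fewer groups share the spread in the fits alone; the cause of the other changes was not tested.

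With 1 replicate left out, the non-hair cell log2 response turned in sign for Marveld2 (-0.19 to 0.25), Cldn9 (-0.43 to 0.14), Cldn14 (-0.49 to 0.28), Ocln (-0.34 to 0.20) and Ildr1 (-0.41 to 0.23), and the difference of responses for Cldn14 (-0.39 to 0.38), Cldn3 (-0.48 to 0.19), Tjp1 (-0.07 to 0.10), Cldn9 (-0.03 to 0.54) and Ildr1 (-0.10 to 0.53); none of these was called. No hair cell response and no difference between populations turned in sign under any alternative. The control comparison called 5 to 6 genes and that of treated organs 6 to 7 with 1 replicate left out. Median-of-ratios scaling moved every gene by 0.126 toward hair cells in the control comparison and changed no member's call there. With the longest transcript in place of the exon union, Cldn9 took 50.3% and Cldn14 20.6% of the claudin sum in control hair cells. With 3 replicates a group and this spread among non-hair cells, the size of response that could be detected there was not tested. With all groups fitted, the non-hair cell intervals were -0.58 to 0.50 (Ocln), -0.44 to 0.51 (Marveld2) and -1.16 to 0.28 (Cldn6). These intervals included the log2 differences seen in hair cells, which were 0.40, 0.50 and -0.86.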
